A study of Mus musculus with 51 samples.

Results

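Macrophage genes were followed in the mouse fetal kidney through the last days before birth. The set was 10 genes chosen by name as markers of tissue macrophages (Csf1r, C1qa, C1qb, C1qc, Cd68, Adgre1, Mrc1, Cx3cr1, Tyrobp and Lyz2), out of 16099 genes in the expression table. Of the 10, 9 had a row in it, and all 9 had a mean value of at least 10, as did 14426 genes in all. Adgre1, which codes for the F4/80 antigen, was not analysed here. Poly-A RNA was measured in kidneys of C57BL/6 fetuses that the labels call wild type, with no treatment named, at 13 time points every 4 h over 48 h. Times are labelled CT0 to CT48 by the hour, with CT0 at embryonic day 18, CT24 at embryonic day 19 and CT48 at embryonic day 20. Each time point had 4 libraries, except CT20 with 3, which made 51. The title of the series names the circadian clock and developmental time in the kidney.

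Macrophages settle in the kidney before birth and lie between the tubules, where they take up dead cells and debris. Their survival depends on the receptor coded by Csf1r, which binds the cytokines CSF1 and IL-34. They are also a main source of C1q, the protein that starts the classical complement pathway and is built from the products of C1qa, C1qb and C1qc.

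The labels call the libraries of a time point biological replicates but name no dams or litters, so p-values measure only the spread between these libraries, and fetuses of 1 time point may share a litter. Library numbering splits the series in 2, CT0 to CT24 (27 libraries) and CT28 to CT48 (24 libraries). The IDs of 2 libraries, replicate 4 of CT12 and replicate 3 of CT36, start with another prefix. The values are the authors' normalised numbers, rounded, with library totals from 34226024 to 35711911, so the sequencing depth is unknown. Gene by gene, the means of these parts nearly coincided: their log2 difference had an SD of 0.0271 over the genes tested and lay between -0.035 and 0.013 for the 9 macrophage genes. Levels were therefore not compared across the step between CT24 and CT28. The median SD within time points was 0.136 (log2) in CT28 to CT48 and 0.0748 in CT0 to CT24, so each comparison within a part was fitted on that part. In bulk tissue, fewer cells of a type and less RNA per cell cannot be told apart.

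The C1q genes are neighbours in the genome. By GENCODE M21 (GRCm38, also called mm10) they lie on the minus strand of chromosome 4: C1qb at 136880129 to 136886187, C1qc at 136889804 to 136893065 and C1qa at 136895917 to 136898803. The gaps were 3616 bases and 2851 bases, and the 3 genes together spanned 18675 bases. RefSeq promoters (GRCm38.p6) were matched for 6 of the 10 genes. The 250 bases before the RefSeq start were searched on both strands for GAGGAA (reverse complement TTCCTC), the core that the myeloid factor PU.1 is known to bind. Both C1q promoters matched here are printed 5′ to 3′ on the gene's strand, with the match in capitals. C1qb is chr4:136886201-136886450 (minus strand), with the match at position -30 from the start. C1qc is chr4:136892915-136893164 (minus strand), with the match, in reverse, at position -193. The RefSeq start of C1qc lies inside the GENCODE gene.
C1qb: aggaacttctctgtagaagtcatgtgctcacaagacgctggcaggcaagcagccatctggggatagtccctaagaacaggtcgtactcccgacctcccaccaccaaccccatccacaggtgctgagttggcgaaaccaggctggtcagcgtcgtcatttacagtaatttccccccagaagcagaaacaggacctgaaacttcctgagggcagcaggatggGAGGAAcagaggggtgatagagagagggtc
C1qc: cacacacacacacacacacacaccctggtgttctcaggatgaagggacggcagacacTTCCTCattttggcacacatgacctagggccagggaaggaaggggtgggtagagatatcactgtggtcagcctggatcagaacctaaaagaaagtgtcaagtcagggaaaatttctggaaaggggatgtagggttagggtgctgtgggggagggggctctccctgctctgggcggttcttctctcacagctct

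Cd68 and Mrc1 also held the 6 letters and Cx3cr1 and Lyz2 did not, which made 4 of 6 promoters. The same letters occurred in 6252 of 27025 RefSeq promoter windows of 250 bases (23.1%). A match describes the letters only.

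The other macrophage genes are spread over the genome. Csf1r lies on chromosome 18 (61100598 to 61132149, plus strand), Cd68 on chromosome 11 (69664213 to 69666153, minus strand) and Mrc1 on chromosome 2 (14229392 to 14332057, plus strand). Cx3cr1 lies on chromosome 9 (119901616 to 120069879, minus strand), Tyrobp on chromosome 7 (30413760 to 30417585, plus strand) and Lyz2 on chromosome 10 (117277331 to 117282321, minus strand). All are protein-coding. No source used here says whether counting was by strand, so genes that overlap another gene are uncertain. Csf1r overlaps Hmgxb3, and the long interval of Cx3cr1 takes in Wdr48, Gorasp1, Ttc21a, Csrnp1 and Xirp1. Lyz2 has a close copy, Lyz1, whose values ran from 0 to 8 with a mean of 2.39.

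Per kilobase of exon, the highest mean over the 51 libraries belonged to C1qb (690.9), followed by Lyz2 (649.4), C1qa (539.2), Tyrobp (441.7), C1qc (365.6), Csf1r (327.1), Cd68 (170.1), Mrc1 (137.2) and Cx3cr1 (101.2). These are levels per length, and they divide the deposited values by all annotated exon bases. C1qb, C1qa and Lyz2, which codes for the lysozyme of myeloid cells, were thus the most abundant of the 9 per length. The fractalkine receptor gene Cx3cr1 was the least abundant of the 9.

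**Figure D1:**
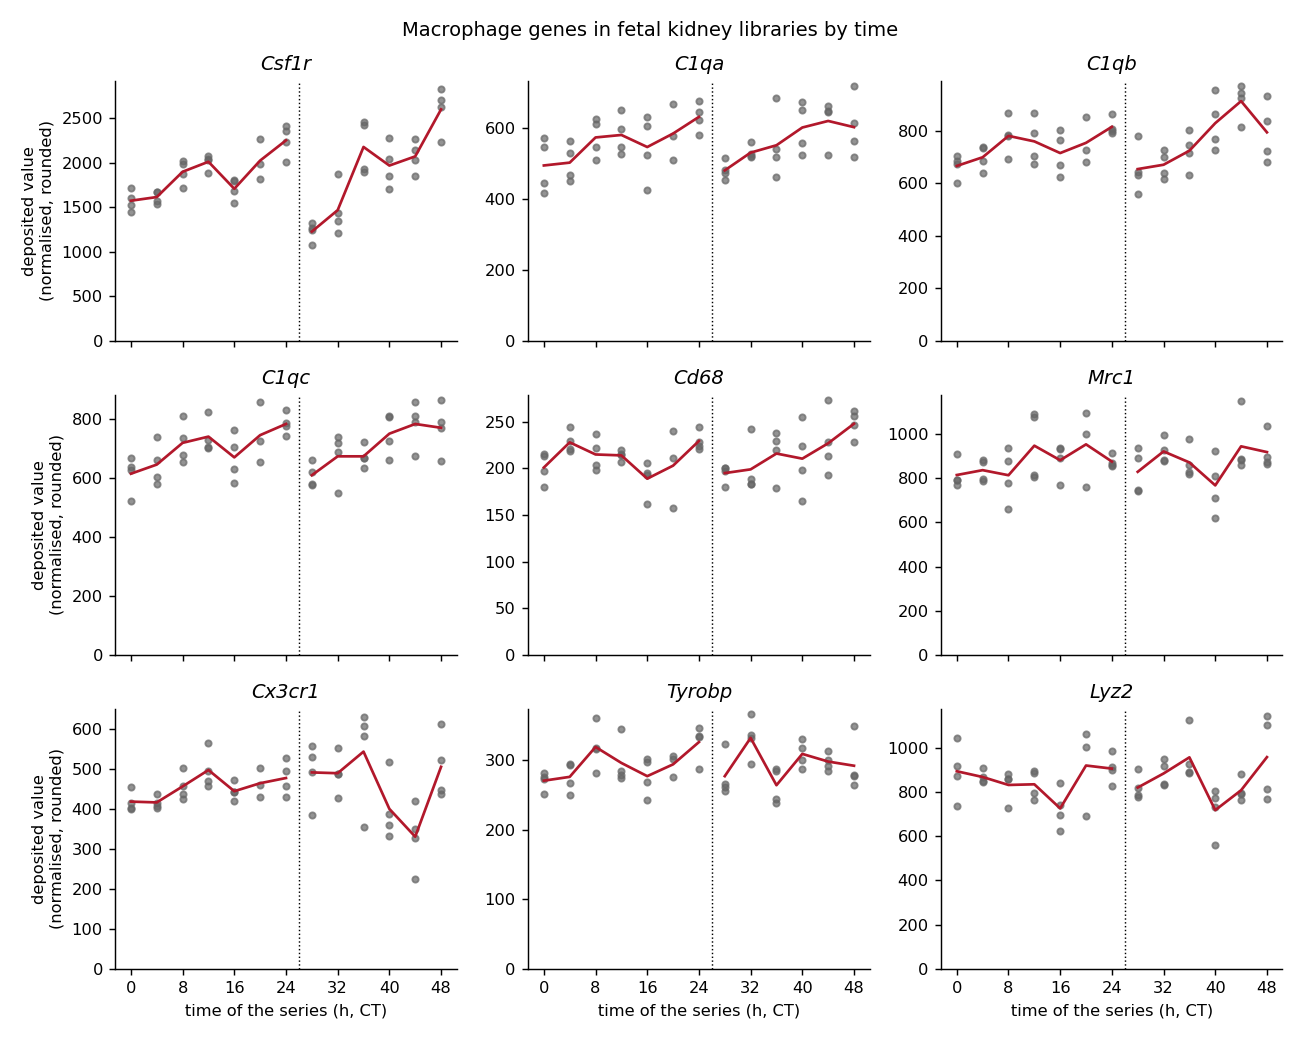
Deposited values (normalised, rounded, linear axis from 0) of the 9 macrophage genes against time of the series in hours; each point is 1 library, the line joins time-point means inside each part, and the dotted line marks the change of library numbering. Csf1r runs between 1448 and 2415 in CT0 to CT24 and between 1075 and 2830 in CT28 to CT48, while Lyz2, Mrc1 and Tyrobp show no steady course.

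From embryonic day 18 to day 19, at the same clock time, the receptor and the complement genes rose together. Of the 9 macrophage genes, 6 were higher at CT24 than at CT0 and 0 were lower (limma, Benjamini-Hochberg adjusted p under 0.05). Of all genes tested, 26.6% were called, 14.3% higher and 12.2% lower. The median log2 difference of the 9 genes was 0.27, against 0.00 over all genes tested.

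Csf1r, the receptor that keeps macrophages alive, had 2232, 2354, 2003 and 2415 at CT24, against 1522, 1448, 1715 and 1606 at CT0. Every CT24 library lay above every CT0 library. The means were 2251 ± 182 at CT24 and 1573 ± 114.7 at CT0 (SD, n = 4 each), 1.43-fold higher (log2 0.52 ± 0.07 SE, adjusted p = 3e-06, limma). The gene that overlaps it, Hmgxb3, differed by 0.03 (log2, adjusted p = 0.651).

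C1qa, which codes for the A chain of C1q, had 644, 622, 581 and 676 at CT24, against 444, 416, 547 and 571 at CT0. C1qb, which codes for the B chain, had 791, 798, 807 and 864 at CT24, against 675, 602, 683 and 705 at CT0. C1qc, which codes for the C chain, had 787, 777, 743 and 831 at CT24, against 629, 523, 668 and 639 at CT0. For none of these genes did the libraries of the 2 times overlap, and CT0 replicate 2 was the lowest of all 8 in each. The log2 differences were 0.36 ± 0.12 (SE) for C1qa, 0.29 ± 0.08 for C1qb and 0.36 ± 0.09 for C1qc, or 1.28-fold, 1.22-fold and 1.28-fold. Their adjusted p-values were 0.025, 0.0111 and 0.00595 (limma).

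Tyrobp, which codes for the ITAM adaptor DAP12 of activating myeloid receptors, had 335, 334, 288 and 346 at CT24, against 251, 276, 282 and 273 at CT0. The times did not overlap, and CT24 replicate 3 lay close to the highest CT0 library. The log2 difference was 0.27 ± 0.08 (SE), with an adjusted p of 0.018 (limma). Cx3cr1, which codes for the receptor of fractalkine, had 527, 430, 457 and 495 at CT24, against 455, 399, 415 and 401 at CT0. Here the libraries overlapped, since CT0 replicate 1 exceeded CT24 replicate 2. Its log2 difference of 0.19 ± 0.07 (SE) passed the threshold with an adjusted p of 0.0416 (limma).

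The other 3 genes did not pass. Cd68, a lysosomal membrane glycoprotein gene, had 221, 224, 228 and 245 at CT24, against 197, 180, 215 and 213 at CT0. The libraries did not overlap, but the log2 difference of 0.19 ± 0.09 (SE) had an adjusted p of 0.13 (limma). Mrc1, which codes for the mannose receptor CD206, averaged 876 ± 27.2 at CT24 and 815 ± 63.6 at CT0 (SD, n = 4 each), with an adjusted p of 0.537 (limma). Lyz2 averaged 906 ± 64.7 at CT24 and 894 ± 128.4 at CT0 (SD, n = 4 each), with an adjusted p of 0.882 (limma). All libraries of CT24 lay above all of CT0 for 6 of the 9 genes, as they did for 14.8% of all genes tested.

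**Figure D2:**
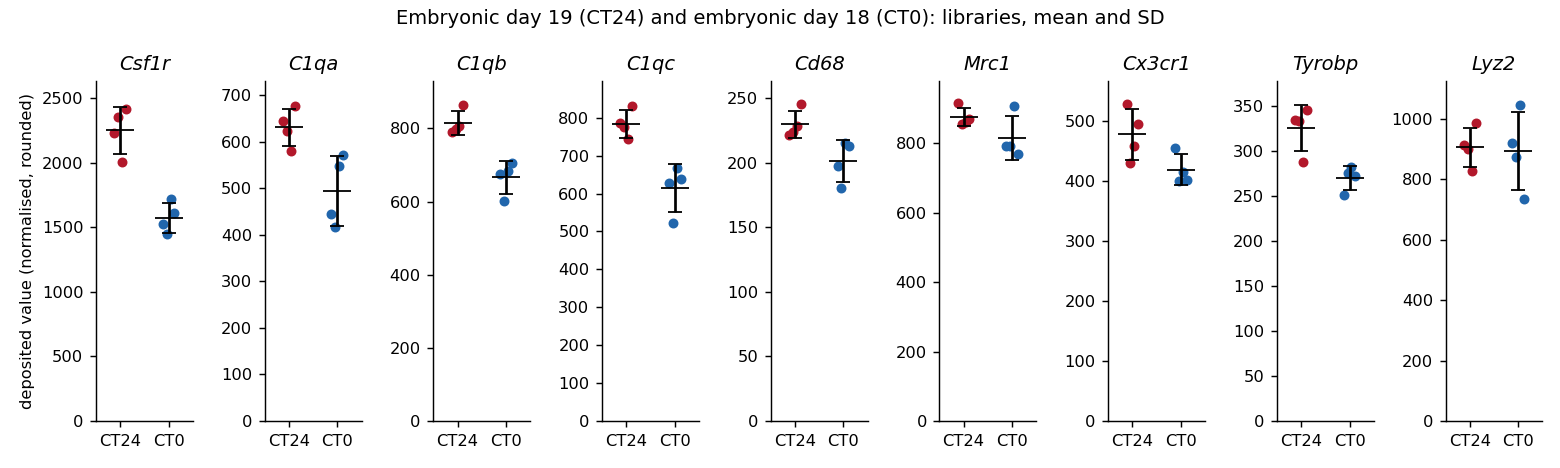
Deposited values of the 9 macrophage genes in each of the 4 libraries of CT24 (embryonic day 19, left in each panel) and CT0 (embryonic day 18, right), with mean and SD; the linear axes start at 0. The libraries of the 2 times are separate for Csf1r, C1qa, C1qb, C1qc, Cd68 and Tyrobp and overlap for Mrc1, Cx3cr1 and Lyz2.

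Some of these calls rested on single libraries. Csf1r and C1qc were called whichever of the 8 libraries was left out. C1qb lost its call without CT0 replicate 2 (adjusted p = 0.0504). C1qa lost it without CT0 replicate 1 (0.0777) or 2 (0.1), or CT24 replicate 1 (0.0513) or 4 (0.0673). Tyrobp lost it without CT0 replicate 1 (0.062) or CT24 replicate 4 (0.0579), and 3 of the 9 genes were called without CT0 replicate 2 and also without CT24 replicate 4. Cx3cr1 lost it without CT0 replicate 2 (0.113), 3 (0.0782) or 4 (0.0999) and without CT24 replicate 1 (0.158) or 4 (0.101). With all 51 libraries sharing 1 estimate of the spread, Tyrobp (0.0725) and Cx3cr1 (0.47) were not called, nor was Cx3cr1 under quantile scaling (0.0651) (limma adjusted p throughout).

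Other genes of the same system were read from lists chosen with earlier results of these data known. Among 21 other macrophage surface and lysosome genes, 7 were higher at CT24 than at CT0 and 0 were lower, with a median log2 difference of 0.21. Beside the 26.6% of all genes called (14.3% higher), the number called in either direction is near the background in this list. The same holds for the next lists of ligands and ITAM signalling. All calls in these lists were higher, most members did not pass, and the shares were not tested. Siglec1, a sialic acid receptor of macrophages, differed by 0.81 ± 0.15 (log2, SE; adjusted p = 0.000223, limma). Lgmn (0.45), Ctss (0.41) and Mpeg1 (0.32), which code for the lysosomal proteases legumain and cathepsin S and for the pore-forming perforin-2, were also called. Tubule cells express Lgmn as well, and its mean of 15610 was far above that of Ctss (528).

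Among 9 genes for CSF1R ligands, macrophage transcription factors and fractalkine, 3 were higher at CT24 than at CT0 and 0 were lower. Il34, a ligand of CSF1R, differed by 0.37 (log2, adjusted p = 0.0236, limma). Irf8, a transcription factor of the macrophage lineage, differed by 0.30, and Cx3cl1, which codes for fractalkine, by 0.27. Of 8 ITAM signalling genes 3 were higher and 0 lower: Fcer1g, the Fc receptor gamma chain (0.27), Inpp5d, the inhibitory phosphatase SHIP1 (0.18), and Sirpa, an inhibitory receptor (0.09).

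Of 9 other complement genes, 6 were higher at CT24 than at CT0 and 0 were lower, with a median log2 difference of 0.43. C1ra, a serine protease of the C1 complex, differed by 0.43 ± 0.06 (SE), and C2, a component of the C3 convertase, by 0.48 ± 0.08 (adjusted p = 1.84e-06 and 6.54e-05, limma). Itgb2, the beta chain of complement receptor 3, differed by 0.48. C4b differed by 1.43 at a mean value of 16.8, and the close copy C4a makes its counting uncertain.

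Genes of other blood cells were read in shorter lists. Among neutrophil (6), lymphocyte (2), mast cell (3) and erythroid and platelet genes (5), limma called 0 between CT24 and CT0, and 0 had an unadjusted p under 0.05. The smallest p in each belonged to S100a9 (log2 0.41, adjusted p = 0.135), Cd79b (-0.17, 0.148), Cpa3 (0.81, 0.188) and Ermap (0.43, 0.167). The median log2 differences of these lists were 0.328, -0.044, 0.778 and 0.042 in the same order, against 0.265 for the macrophage genes. Standard errors were wide for some, such as 0.445 for Cpa3, so the absence of calls does not show that these lists were unchanged. Of the 5 monocyte genes tested, Plac8 was called (log2 0.30), and of the 4 antigen presentation genes tested, H2-Ab1 (0.35) and Cd74 (0.34), which macrophages also express. The monocyte list summed to 3846 to 4105 at CT24, against 2964 to 3358 at CT0, with Plac8 at a mean of 2693 and the defining gene Ly6c2 at 27.8. The neutrophil list summed to 613 to 824 at CT24, against 452 to 681 at CT0. Markers near 0 over the 51 libraries were Mpo (mean 1.98), Cd3d (2.78), Flt3 (6.63) and Cd209a (1.65). Other genes of the same lists had higher means, such as S100a9 (279), Cd79b (146) and Clec9a (37.8), so these cell types are not shown to be absent. The part of other cell types in the rise was not tested.

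Markers of the kidney itself moved too. All 7 kidney identity genes were called between CT24 and CT0, 5 higher and 2 lower, led by Umod of the thick ascending limb (log2 0.98), Aqp2 of the collecting duct (0.76), Slc12a3 of the distal convoluted tubule (0.66) and Slc34a1 of the proximal tubule (0.38). Their sum was 64437 to 68228 at CT24, against 44137 to 49781 at CT0. Of 7 liver genes, 1 was called, Ttr (1.21), and of 7 endothelial genes Prox1 and Pecam1 were higher and Stab2 lower. The sum of the 9 macrophage genes was 6796 to 7728 at CT24, against 5509 to 6480 at CT0.

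Over the whole of CT0 to CT24 a straight line in time gave positive slopes, called at the threshold, for 5 of the 9 genes and negative ones for 0. Of all genes tested 22.9% had a called slope, 12.9% a rising one. Csf1r had means of 1573 ± 114.7, 1614 ± 70.4, 1898 ± 134.7, 2011 ± 86.4, 1707 ± 121.4, 2024 ± 227.4 and 2251 ± 182 (SD) from CT0 to CT24. It was lower at CT16 than at CT12 and CT20, so the course was not an even one. The slope was 0.44 ± 0.08 (log2 per 24 h, SE; adjusted p = 0.000109, limma).

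The C1q genes had slopes of 0.31 ± 0.09 for C1qa, 0.21 ± 0.07 for C1qb and 0.30 ± 0.08 for C1qc (log2 per 24 h, SE), with adjusted p-values of 0.0127, 0.0315 and 0.00593 (limma). Their means also dipped at CT16, to 546, 715 and 670.5 (C1qa, C1qb and C1qc). Cx3cr1 had a slope of 0.19 ± 0.06 (adjusted p = 0.0329, limma). The slope of Tyrobp was 0.17 ± 0.08 (adjusted p = 0.1), that of Mrc1 0.16 ± 0.09 (0.202), that of Cd68 0.01 ± 0.09 (0.948) and that of Lyz2 -0.01 ± 0.10 (0.959).

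The first and last time points carried much of this. Without CT0 or without CT24, 1 of the 9 genes kept a call, Csf1r. Over the 7 time-point means in place of libraries, Csf1r and C1qa were called. Without replicate 2 of every time point, 2 genes were called, and C1qa (0.0815), C1qb (0.161) and C1qc (0.078) lost theirs. Without replicate 3 or without replicate 4, 3 were called, as C1qb (0.0958 and 0.112) and Cx3cr1 (0.166 and 0.162) lost theirs.

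In the second part the receptor gene had the steepest course of the 9. From CT28 to CT48, 5 of the 9 genes had a called positive slope, and 0 a called negative one. This part moved widely, since 59.3% of all genes tested had a called slope and 28.7% a rising one. Csf1r had 1075, 1320, 1266 and 1241 at CT28, 1436, 1874, 1213 and 1344 at CT32, and 1929, 2427, 2462 and 1891 at CT36. It had 1852, 2046, 2274 and 1702 at CT40, 1849, 2147, 2262 and 2027 at CT44, and 2233, 2628, 2830 and 2704 at CT48. All CT28 libraries lay below all libraries from CT36 on, all libraries from CT36 on lay above all of CT32 but 3 of them (CT40 replicates 1 and 4 and CT44 replicate 1), and CT48 was the highest on average. The slope was 1.17 ± 0.15 (log2 per 24 h, SE; adjusted p = 2.92e-07, limma), a 2.25-fold rise per 24 h. The overlapping gene Hmgxb3 had a slope of 0.41 in the same part (adjusted p = 3.14e-05).

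C1qa had a slope of 0.41 ± 0.12, C1qb of 0.50 ± 0.12 and C1qc of 0.43 ± 0.10 (log2 per 24 h, SE), with adjusted p-values of 0.00375, 0.000863 and 0.000816 (limma). C1qb averaged 654 ± 91.7 at CT28, 670.5 ± 50.9 at CT32, 724 ± 71.4 at CT36, 829 ± 101.6 at CT40 and 913 ± 67.2 at CT44 (SD, n = 4 each). At CT48 its libraries had 682, 838, 934 and 724, with a mean of 794. Its highest mean was at CT44, whereas that of Csf1r was at CT48. At CT44 C1qb had 816, 943, 969 and 923, against 630, 717, 746 and 801 at CT36, with no overlap, which held for 8.08% of all genes tested in this direction. Of the 9 genes, 1 was separately higher and 1, Lyz2, separately lower (mean 808 at CT44 and 957 at CT36), beside 8.08% of all genes each way. Since CT44 had the highest mean of C1qb, this separation is no independent test of its rise.

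Cd68 had 228, 262, 256 and 247 at CT48, against 180, 201, 201 and 197 at CT28, with no overlap. Its slope was 0.38 ± 0.15 (log2 per 24 h, SE; adjusted p = 0.0237, limma). The call was lost without CT28 (0.0872), CT32 (0.0514) or CT48 (0.228) and without replicate 1 (0.0644), 2 (0.103) or 3 (0.137) of each time point. All CT48 libraries lay above all CT28 libraries for Csf1r, C1qa and Cd68, and for 23% of all genes tested, while 25.7% were separate the other way.

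Mrc1, Tyrobp and Lyz2 had slopes of 0.11 ± 0.13, 0.03 ± 0.13 and 0.04 ± 0.15 (log2 per 24 h, SE), none called. Lyz2 still averaged 957 at CT36, 718 at CT40, 808 at CT44 and 958 at CT48. Cx3cr1 also dipped between CT36 and CT48. It had 606, 629, 581 and 355 at CT36, 518, 360, 388 and 333 at CT40, 349, 328, 420 and 224 at CT44, and 437, 448, 521 and 613 at CT48. CT44 was the lowest time point and CT48 lay above it in every library. Since CT44 was picked as the lowest mean of Cx3cr1, this separation is no independent test of a dip. Its share over all genes was not taken. The slope of Cx3cr1 over the whole part was -0.34 ± 0.23 (adjusted p = 0.206, limma), and without CT48 it was -0.89 (adjusted p = 0.00741). Leaving out CT48 removed the time point at which the values were higher again, and 7763 of the 14426 genes tested had a called slope in that fit. Of the genes within its annotated interval, Wdr48 (-0.28) and Gorasp1 (-0.52) had called falling slopes in this part. Csrnp1 (0.83) and Xirp1 (2.49, at a mean value of 12.2) had called rising ones.

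The slopes of CT28 to CT48 rested on its first 2 time points. Without CT28 and CT32, 0 of the 9 genes and 1074 of all genes were called (limma), and Csf1r had a slope of 0.52 with an adjusted p of 0.176. Without CT28 alone, 3 of the 9 were called, and C1qa had an adjusted p of 0.114.

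**Figure D3:**
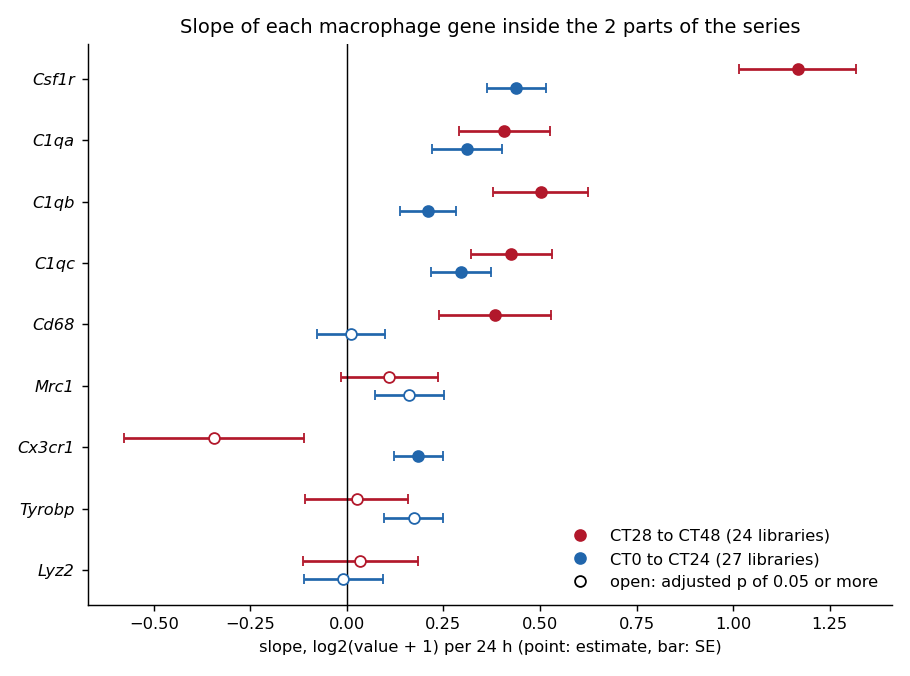
Slope of each macrophage gene in log2(value + 1) per 24 h (horizontal axis), with its standard error, for CT28 to CT48 (red, upper point of each gene) and CT0 to CT24 (blue, lower point); filled points have an adjusted p under 0.05. Csf1r reaches 1.17 in CT28 to CT48 and 0.44 in CT0 to CT24, the 3 C1q genes lie right of 0 in both, and Cx3cr1 lies on opposite sides of 0.

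The difference of the slopes, CT28 to CT48 minus CT0 to CT24, was called for 3 of the 9 genes, and for 55.1% of all genes tested, with 25.3% positive and 29.8% negative. Csf1r was steeper by 0.73 ± 0.17 (log2 per 24 h, SE; adjusted p = 0.000224, limma) and Cd68 by 0.37 ± 0.16 (0.0413). Cx3cr1 differed by -0.53 ± 0.22 (adjusted p = 0.0419). This fit took 1 spread per gene for both parts. For Cx3cr1 the SD within time points (log2) was 0.289 in CT28 to CT48 and 0.102 in CT0 to CT24, so its SE and p-value rest on an equal spread that the values do not show. For the C1q genes the differences were 0.10 ± 0.15 for C1qa, 0.29 ± 0.14 for C1qb and 0.13 ± 0.13 for C1qc, with adjusted p-values of 0.603, 0.0691 and 0.401. Without CT28 and CT32, the difference of Csf1r was 0.08 (adjusted p = 0.848) and 0 of the 9 genes were called (limma). Without replicate 1, 2 or 3 of every time point, Cd68 was not called (0.153, 0.0793 and 0.228), and without any one replicate number Cx3cr1 was not (0.0556 to 0.121). C1qb was called without replicate 1 (0.42, adjusted p = 0.0147).

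In the step from CT32 to CT36 Csf1r was called and the C1q genes were not, though the difference between these genes was not tested. The step was chosen because earlier results of these data placed a large shift there. Its calls are thus no independent test of a shift. Csf1r had 1929, 2427, 2462 and 1891 at CT36, against 1436, 1874, 1213 and 1344 at CT32, and the groups did not overlap. It was 1.49-fold higher (log2 0.58 ± 0.12 SE, adjusted p = 0.000416, limma). C1qa (0.04 ± 0.12), C1qb (0.11 ± 0.11) and C1qc (0.01 ± 0.10) did not pass (adjusted p = 0.821, 0.478 and 0.96). In all, 1 of the 9 genes was higher and 1 lower, while 34.8% of all genes tested were called, 15.7% higher and 19.1% lower. The groups did not overlap in 1 gene that was higher at CT36 and 1 that was lower, against 12.7% and 16.9% of all genes tested.

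The lower gene was Tyrobp, with 288, 244, 239 and 284 at CT36, against 367, 294, 332 and 336 at CT32. All CT36 libraries lay below all CT32 libraries. The log2 difference was -0.33 ± 0.12 (SE, adjusted p = 0.0303, limma). The call was lost without CT32 replicate 1 (0.0924), 3 (0.0588) or 4 (0.0587), without CT36 replicate 2 (0.0913) or 3 (0.0991), and under quantile scaling (0.0604). CT36 replicate 3 is one of the libraries with the other ID prefix. In the same step Plac8 fell by 0.98 on the log2 scale (adjusted p = 3.93e-07), and the monocyte list summed to 2404 to 3694 at CT36, against 4484 to 5427 at CT32. Plac8 was chosen for this step after its values were seen, and the part of monocytes in the difference of Tyrobp was not tested.

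From CT36 to CT48 limma called 0 of the 9 genes, of which 1, Csf1r, had an unadjusted p under 0.05. Of all genes tested, 13.9% were called, 6.74% higher and 7.17% lower. Csf1r averaged 2599 ± 257.7 at CT48 and 2177 ± 309.3 at CT36 (SD, n = 4 each), with a log2 contrast of 0.26 ± 0.12 that did not pass (adjusted p = 0.133, limma). With all 51 libraries in 1 fit it was called (0.0411). Libraries of these times overlapped for all 9 genes, while 9.28% of all genes tested were separately higher and 9.14% separately lower.

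Lists of other genes in CT28 to CT48 are read beside the 59.3% of all genes with a called slope, 28.7% rising and 30.7% falling. Of 21 other macrophage genes, 11 had rising slopes and 3 falling ones, in either direction a number called near that background. Cd163, a scavenger receptor, had a slope of 1.45 ± 0.31 and Itgam, the alpha chain of complement receptor 3, of 1.32 ± 0.31 (log2 per 24 h, SE; adjusted p = 0.000169 and 0.000629, limma). Timd4, a receptor for phosphatidylserine, had a slope of -3.94 ± 0.96 at a mean value of 15.3, and Aif1, which codes for IBA1, of -0.99 ± 0.29 (adjusted p = 0.000787 and 0.00441). The members of this list thus did not share a direction.

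Of the 9 genes for ligands, transcription factors and fractalkine, 7 had rising slopes and 1 a falling one in CT28 to CT48. Runx1 (1.59), Cebpb (1.38) and Maf (1.03), which code for transcription factors, and Cx3cl1 (0.73) were the largest, and cells other than macrophages also express them. Of 9 complement genes 4 rose and 0 fell, with C3, the central component, at 1.90, C2 at 0.94, C1ra at 0.69 and Serping1, the C1 inhibitor, at 0.54. In either direction that is fewer than the 59.3% of all genes would give, and in the rising direction more than the 28.7%. The share was not tested. Of 8 ITAM signalling genes 2 rose (Trem2, a receptor that pairs with DAP12, at 0.92, and Inpp5d at 0.61) and 2 fell, among them Clec7a, the receptor dectin-1, at -1.07. Of 4 antigen presentation genes 4 rose, Clec9a by 0.76, Cd74 by 0.70, H2-Aa by 0.69 and H2-Ab1 by 0.26. Among the other blood cell lists, Plac8 (-0.97), S100a9 (-0.67) and Alas2 (-0.89) fell and Ltf (1.62) rose, while limma called 0 lymphocyte genes of 2 and 0 mast cell genes of 3, with 1 of each list at an unadjusted p under 0.05 (Cd79a at 0.95 and Tpsb2 at 1.07, with adjusted p-values of 0.0781 and 0.063).

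Genes of other tissues moved in CT28 to CT48 as well. Of 7 kidney identity genes 4 rose and 1 fell, with Umod at 0.97, Slc12a3 at 0.77, Foxd1, a stromal progenitor gene, at 0.57, and Six2, a nephron progenitor gene, at -0.57 (log2 per 24 h). Of 7 endothelial genes 5 rose and 0 fell, with Stab2 at 1.99, Prox1 at 0.52, Cdh5 at 0.45 and Flt4 at 0.19. Of 7 liver genes 3 rose and 0 fell, Fgb at 1.93, Ttr at 1.51 and Serpina1a at 0.76. The endothelial list summed to 19820 to 21848 at CT48, against 17739 to 18853 at CT28, and the liver list to 10412 to 12083 at CT48, against 7791 to 9098 at CT28. The kidney identity list summed to 52305 to 63695 at CT48, against 46761 to 56746 at CT28, and the 9 macrophage genes to 6686 to 8423 at CT48, against 5368 to 5758 at CT28. The part of these tissues in the slopes of the macrophage genes was not tested.

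Over CT0 to CT24, where 22.9% of all genes had a called slope and 12.9% a rising one, the same lists gave 8 rising and 0 falling genes of 21 for the other macrophage genes, led by Siglec1 (0.79), Cd163 (0.48), Lgmn (0.40) and Ctss (0.34). They gave 4 of 9 for ligands and factors (Il34 at 0.39, Cx3cl1 at 0.27, Irf8 at 0.25 and Maf at 0.14) and 1 of 8 for ITAM signalling (Sirpa at 0.10), with 0 falling in each. Complement gave 6 of 9 (C4b at 1.07, Itgb2 at 0.42, C2 at 0.40 and C1ra at 0.39) with 0 falling, and antigen presentation 2 of 4 (H2-Ab1 at 0.32 and Cd74 at 0.31) with 0 falling. Of the monocyte genes Plac8 rose (0.26) and Ccr2, a chemokine receptor of monocytes, fell (-0.38). Limma called 0 of the neutrophil, lymphocyte, mast cell and erythroid genes, of which 1, the neutrophil gene S100a9 (0.46, adjusted p = 0.102), had an unadjusted p under 0.05. The smallest p in the other 3 lists belonged to Cd79a (0.12, 0.655), Cpa3 (0.53, 0.289) and Alas2 (-0.37, 0.152). Median slopes of the neutrophil, lymphocyte, mast cell and erythroid lists were 0.384, 0.033, 0.485 and -0.024, against 0.185 for the macrophage genes. All 7 kidney identity genes were called, 5 rising and 2 falling, with Aqp2 at 0.94, Umod at 0.92, Slc12a3 at 0.65 and Slc34a1 at 0.36. Of the endothelial genes Prox1 (0.43) and Cdh5 (0.10) rose and Stab2 (-0.50) fell, and of the liver genes Ttr (0.98) rose.

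The ratio of Csf1r to the summed C1q genes, taken inside each library, ranged from 0.593 to 1.28. At the ends of the first part it was 1.01 ± 0.0541 at CT24 and 0.888 ± 0.0434 at CT0. In the second part it was 0.705 ± 0.0811 at CT28, 0.782 ± 0.142 at CT32, 1.13 ± 0.194 at CT36, 0.901 ± 0.0519 at CT40, 0.895 ± 0.0291 at CT44 and 1.20 ± 0.0645 at CT48 (SD, n = 4 each). Every CT48 library lay above every library of CT28, CT32, CT40 and CT44, so receptor and complement transcripts did not keep 1 proportion in this part. The C1q genes among themselves came closer to that, with C1qa over C1qb at 0.749 ± 0.0664 and C1qc over C1qb at 0.943 ± 0.0747 (SD over 51 libraries). These ratios are of values not divided by length, and no test was run on them.

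**Figure D4:**
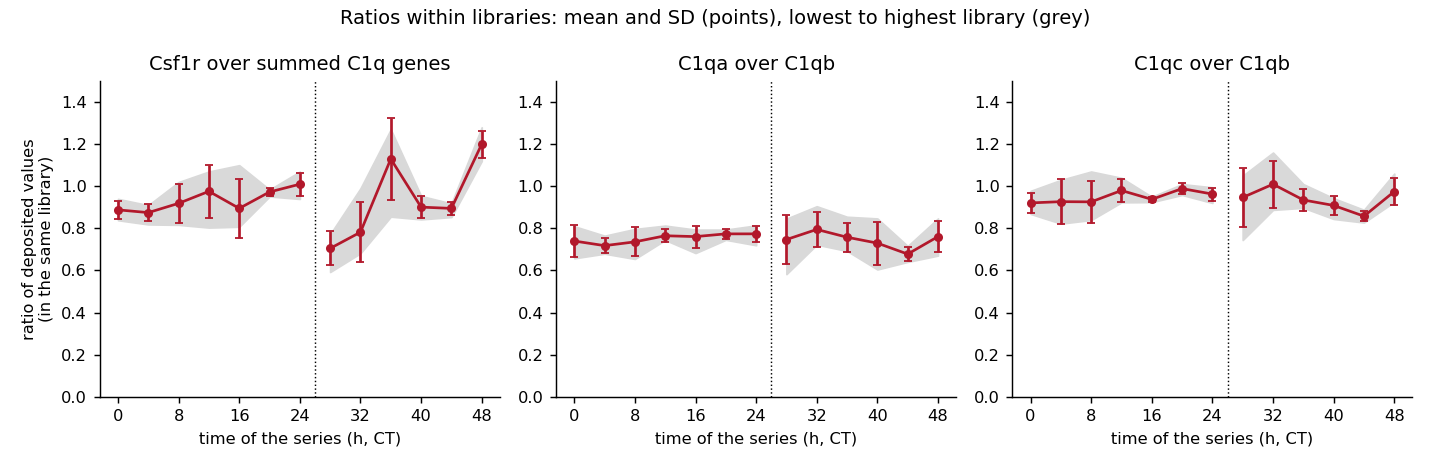
Ratios of deposited values inside each library against time of the series in hours, for Csf1r over the summed C1q genes (left), C1qa over C1qb (middle) and C1qc over C1qb (right); points and bars are mean and SD of a time point, the grey band runs from the lowest to the highest library. The left ratio moves between means of 0.705 at CT28 and 1.20 at CT48, while C1qa over C1qb stays within 0.583 to 0.905 in single libraries.

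Libraries of 1 time point were also compared for co-variation of these genes. For each pair of the 9 genes, the deviations of log2 values from the time-point mean were correlated across libraries, which share their normalisation. In CT0 to CT24 (27 libraries) the 36 pairs had a median Pearson's r of 0.501, from 0.007 to 0.83, and all 36 were above 0. Over all pairs of the 14426 genes tested, the median was 0.00 and 50.5% were above 0. In CT28 to CT48 (24 libraries) the median was 0.275, from -0.285 to 0.657, and 31 were above 0, beside a median of 0.00 and 50.3% above 0 over all pairs of genes tested. C1qa and C1qb gave the highest value in the first part (0.83), with 0.493 in the second. C1qb and C1qc gave 0.742 in the first part and 0.655 in the second. Csf1r and Cx3cr1 gave 0.007 in the first part. Across the 13 time-point means C1qa and C1qc correlated at 0.988 and C1qb and Cx3cr1 at -0.505.

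**Figure D5:**
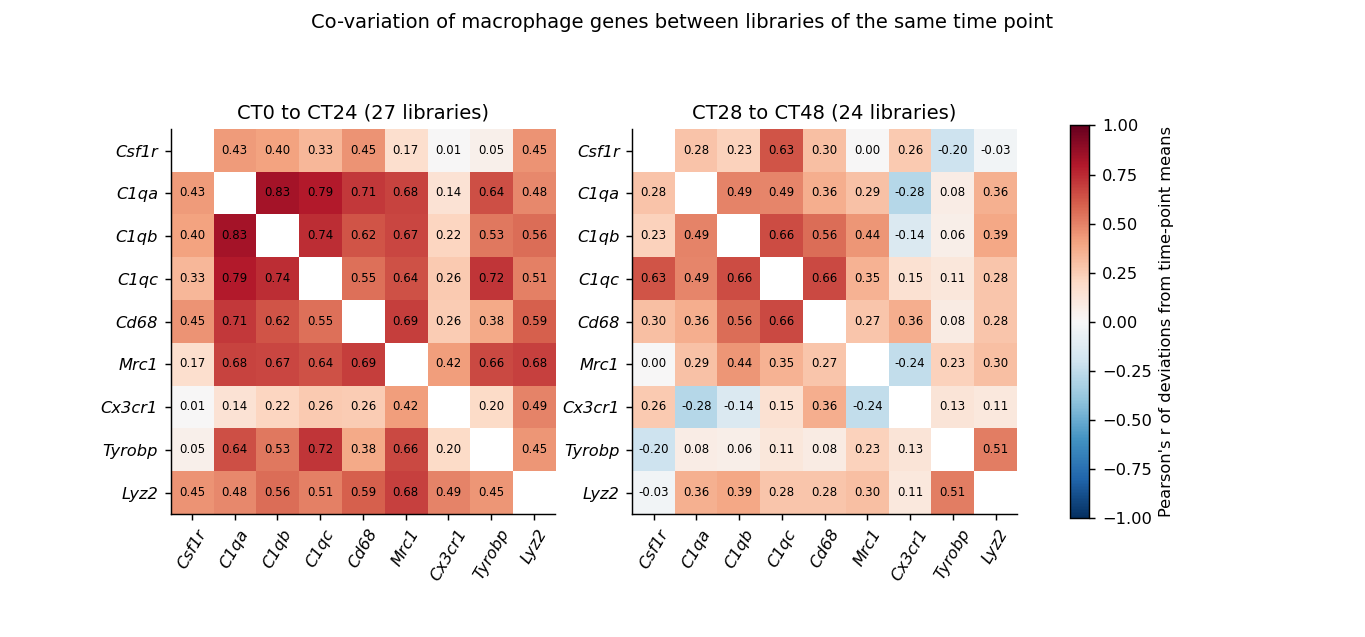
Pearson's r between macrophage genes of the deviations of log2 values from time-point means, for the 27 libraries of CT0 to CT24 (left) and the 24 libraries of CT28 to CT48 (right); red is positive and blue negative, on a scale from -1 to 1. The 3 C1q genes form the reddest block of the left panel, up to 0.83, and Cx3cr1 is the palest row there.

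The mean course of the 9 genes over the 13 time points was compared with 11552 genes of a mean of at least 100. Among the 10 most alike were H2-K1, an MHC class I gene (r = 0.93), Napsa, an aspartic protease (0.924), Rnasek (0.922), Kap, the kidney androgen-regulated protein (0.92), and Ace, angiotensin-converting enzyme (0.912). The 10 also held Ctss (0.909), Ahnak (0.909), Car15 (0.907) and Ftl1 (0.905). Of those named, Ctss was in a macrophage list used here. Among the 9 genes themselves, r with the mean course, to which each contributes, was 0.897 for C1qc, 0.874 for Csf1r and C1qa, 0.718 for Cd68 and 0.712 for C1qb. It was lower for Mrc1 (0.54), Tyrobp (0.497), Lyz2 (0.414) and Cx3cr1 (0.128). Each value rests on 13 points and describes likeness only.

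A 24 h rhythm was tested with cosine and sine terms, a line in time and a step between the parts. Limma called 1 of the 9 genes, while 12.3% of all genes tested were called. Cx3cr1 had an amplitude of 0.21 (log2) with a peak at 7.6 h and an adjusted p of 0.0458. The SE of its cosine and sine terms averaged 0.06. Amplitudes cannot be negative, and their median over all genes tested was 0.069. The call was lost in all 4 fits that each left out 1 replicate number (0.0941 to 0.184). Csf1r had an amplitude of 0.05 (adjusted p = 0.737), with a mean SE of 0.05 for its cosine and sine terms. In the authors' deposited table of a rhythm test 3 of the 9 genes had a combined q under 0.05, against 41.3% of all 16099 genes. In the authors' deposited table these were Csf1r (q = 0.00152), C1qb (q = 0.0126) and C1qc (q = 0.0315), each with a period of 28 h, and Cx3cr1 had a q of 0.115. For all 9 genes, the JTK method of that table gave a period of either 20 h or 28 h, so 28 h is not read here as a measured length.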

How the data were processed

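Fetal kidneys were stored in RNAlater, poly-A RNA was made into Illumina TruSeq libraries and sequenced on HiSeq instruments, per the labels' protocols. Per the submitters' processing notes, bcl2fastq, the aligner STAR 2.5.2b and the counter featureCounts 1.5.0-p3 were used with the mm10 build. No source used here gives the gene annotation, strand setting or normalisation. The authors' deposited expression table holds a score: whole numbers normalised before rounding, as read from the values, with upper quartiles of 2375 to 2425.5 in every library. Raw counts and depth are therefore unknown, so precision rests on how far replicate libraries scatter. The authors' deposited rhythm table holds p-values and q-values with column names of the MetaCycle package, per the file headers.

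Samples were grouped by the time in their labels. Differences, slopes and 24 h terms were fitted with limma 3.58.1 in R 4.3.3 (mean-variance trend, robust) on log2(value + 1), for the 14426 genes with a mean of at least 10, with Benjamini-Hochberg adjustment over all of them. Fold changes are on that scale, which understates changes of low genes. Contrasts and slopes inside a part used that part's libraries, the slope difference and the rhythm all 51, with 1 spread per gene for both parts. Each model was tested on simulated data.

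The macrophage genes and all other lists were chosen with earlier results of these data known. So were the contrast of CT36 with CT32, where those results placed a large shift, and that of CT48 with CT36, the change after it. All macrophage genes are named. From each other list up to 4 genes with the largest change past the threshold are named for CT24 against CT0 and for each slope, or the one with the smallest p, and the 10 genes most like the mean course (gene models, pseudogenes and sex-linked genes left out). Plac8 between CT32 and CT36, the overlapping genes and the near-zero markers were named after their values were seen. A few genes picked by these rules are not reported here. The listed genes Vsig4, Spi1, Pirb, C1s1, Chil3, Elane, Xcr1, Cd3e, Ncr1 and Epb42 were not analysed here. Alternatives were another pseudocount, no filter, quantile scaling, a replicate block, other sets of libraries or time points, weights and time-point means as the unit. Python 3.11.15 with pandas 2.3.3 and matplotlib 3.10.9 made summaries and plots.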

Additional observations from a re-analysis of the deposited data

Results flagged for a closer look

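Single libraries stood apart in 7 of the 108 groups of 4 libraries examined (9 genes at 12 time points), where chance gives about 1 in 20. In each, the gap from the extreme library to its nearest neighbour made up most of the range of the group. The highest library was 909 for Mrc1 at CT0 (the others 768 to 792), 1151 for Mrc1 at CT44 (859 to 886), 242 for Cd68 at CT32 (183 to 189), 345 for Tyrobp at CT12 (275 to 284) and 323 for Tyrobp at CT28 (256 to 266). The lowest was 523 for C1qa at CT44 (the others 646 to 661) and 730 for Lyz2 at CT8 (857 to 880).

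The slope of CT28 to CT48 differed from that of CT0 to CT24 by a test of the difference for 3 genes: Csf1r by 0.73, Cd68 by 0.37 and Cx3cr1 by -0.53 (log2 per 24 h). These differences were not called without CT28 and CT32.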

How the results depend on the processing

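With the macrophage genes, 604 of 724 values under the alternatives kept their direction and side of the threshold, 84 lost a call, 7 gained one and 29 changed sign, none of them a called value. The 604 include values that were uncalled at first and stayed so, and their share is thus no measure of how well calls held. Only Csf1r was counted between CT48 and CT36, and only Csf1r and Cx3cr1 for the rhythm. The number of the 9 genes called between CT24 and CT0 was 3 to 6 when single libraries were left out, and the number of all genes called was 1443 with all 51 libraries in 1 fit. Between CT36 and CT32 it was 1 under quantile scaling and without CT12 replicate 4 and CT36 replicate 3, whose ID prefix differs, and 1 to 2 without single libraries. Between CT48 and CT36, 1 of the 9 and 4209 of all genes were called with all 51 libraries, and 1199 to 2119 of all genes without single libraries. For the slope of CT0 to CT24 the 9 genes gave 3 calls with all 51 libraries, 2 with time-point means, 1 without CT0, 3 without CT4, 1 without CT24 and 2 to 5 without a replicate number. All genes gave 736, 768, 1887 (without CT0), 1300 (without CT24) and 1599 to 2880. Quantile scaling moved the share of rising genes among those called to 45.6%, against 56.4%, and the share higher at CT24 than at CT0 to 44.8%, against 54%. For the slope of CT28 to CT48 the 9 genes gave 3 with time-point means, 3 without CT28 and 0 without CT28 and CT32, and all genes 5438 with time-point means and 1074 without CT28 and CT32. For the slope difference the 9 genes gave 1 with time-point means, 0 without CT28 and CT32 and 1 to 2 without a replicate number, and all genes 5142 and 2909. For the rhythm they gave 0 with no filter, quantile scaling, no libraries of another prefix, time-point means, a line in each part or any replicate number left out, and 2 with weights or without CT28 and CT32. All genes gave 2921 with weights, 0 with time-point means and 224 to 724 without a replicate number. The cause was not tested where it is not fewer libraries or time points.

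Values that changed sign were small. Without single libraries Lyz2 ran from -0.061 to 0.108 between CT24 and CT0, C1qa from -0.07 to 0.12 and C1qc from -0.087 to 0.055 between CT36 and CT32. The CT0 to CT24 slope of Cd68 was -0.032 under quantile scaling, -0.068 without CT0, -0.149 without CT24 and -0.031 to 0.064 without a replicate number. That of Lyz2 was 0.001 with time-point means, 0.069 without CT0, 0.011 without CT4, 0.057 without CT16 and -0.083 to 0.053 without a replicate number. In CT28 to CT48 Tyrobp was -0.12 without CT28, -0.008 without CT36 and -0.061 to 0.081 without a replicate number, and Lyz2 was -0.03 without CT28, -0.213 without CT48 and -0.066 to 0.151 without a replicate number. Slope differences without CT28 and CT32 were -0.042 for C1qa, 0.155 for Mrc1 and 0.054 for Tyrobp. For Mrc1 it was 0.048 under quantile scaling, and without a replicate number C1qa ran from -0.031 to 0.186 and Lyz2 from -0.082 to 0.175.

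Deviations of libraries with the same replicate number correlated at -0.10 to 0.16 between CT24 and CT0 and at -0.03 to 0.04 in the other contrasts. In CT0 to CT24 the mean r was 0.035 for the same number and -0.012 for other numbers, so weak pairing was not excluded. With a replicate block 4304 genes were called between CT24 and CT0, 5204 between CT36 and CT32 and 2277 between CT48 and CT36. Without the block these were 3832, 5023 and 2008. The block gave 6, 2 and 0 of the 9 macrophage genes in these contrasts, as without it.

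Depth is unknown, 4 libraries a time point limit small differences, and the first and last time points of each part weigh most on its slope.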
